A study of Rattus norvegicus with 24 samples.

Results

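GABA-A receptors are the chloride channels through which GABA inhibits neurons, and 7 of their subunit genes were followed in the rat nucleus accumbens (NAc) after intermittent lipopolysaccharide (LPS), repeated heroin, or both. The genes were Gabra2, Gabra3, Gabra4, Gabra5, Gabrb1, Gabrb2 and Gabrd. They were taken by symbol, as a list drawn up with earlier results of these data known, and all 7 were among the 32545 genes of the deposited table. The table gives FPKM, which is reads per kilobase of gene model scaled to the reads of the library, for 24 poly-A RNA-seq libraries in 6 groups of 4. All rats were adult male Sprague Dawley. In the injection experiment, Saline-Saline rats received 5 saline injections and then 5 days of saline, LPS-Saline rats 5 LPS injections of 250 µg/kg over 2 weeks and then saline, Saline-Heroin rats 5 saline injections and then heroin rising from 1 to 5 mg/kg over 5 days, and LPS-Heroin rats LPS followed by heroin. In the self-administration experiment, Saline-SA and Heroin-SA rats carried a jugular catheter and took saline or heroin (0.075 mg/kg per infusion) for 6 h per day in 10 daily sessions, without LPS. The NAc was taken as a piece of tissue holding core and shell, so that fewer cells of a type and less RNA per cell cannot be told apart at any gene below. Nothing in the labels ties a library to more than 1 rat or to a pool, and the p-values measure the spread between these libraries.

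Each GABA-A receptor is a ring of subunits, usually α, β and γ or α, β and δ, and the α subunit largely sets where the receptor sits and how it responds. Receptors with the α2 or α3 subunit and a γ subunit are concentrated at synapses and carry fast phasic inhibition. Receptors with α4 and δ, and most of those with α5, lie outside the synapse and carry tonic inhibition driven by ambient GABA. The β subunits form the GABA binding site together with the α subunits and are needed for assembly at the cell surface. In the NAc most neurons are GABAergic medium spiny neurons (MSN), which are inhibited by one another and by local interneurons, and α2 and α4 are among their main α subunits. Gabra2 and Gabra3 are called synaptic below, and Gabra4, Gabra5 and Gabrd extrasynaptic. Gabrb1 and Gabrb2 serve both kinds of receptor.

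Depth was even. The libraries held 12312878 to 18850240 reads on genes. Within a library the 7 genes drew from 36 reads (the lowest Gabrb1 value) to 4275 reads (the highest Gabra4 value). Counting error was small except for Gabrb1 and for Gabrb2 in the self-administration libraries, where Gabrb2 drew 84 to 359 reads. All 12 MSN markers of the fixed list were detected in every group, with Ppp1r1b between 488 and 1452 FPKM and Drd1 between 41.1 and 103 FPKM. Other forebrain tissue was present in varying amounts. The summed level of 9 detected cortical glutamatergic neuron markers ran from 70.9 to 513 FPKM between libraries. The choroid plexus marker Ttr reached 318 FPKM in Saline-Saline replicate 1. Mitochondrial genes took 6.82 to 9.10% of reads in the 16 injection libraries and 10.0 to 15.9% in the 8 self-administration libraries, with Saline-SA replicates 3 and 4 the highest.

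Of the 7 genes, 3 lie together on chromosome 14 in the rn6 coordinates of the table. Gabrb1 (38643385 to 39112600, minus strand) is separated by 41.9 kb from Gabra4 (39154529 to 39231695, plus strand), and Gabra4 by 430 kb from Gabra2 (39661968 to 39798302, plus strand). Gabra5 lies on chromosome 1 (112833975 to 112947173, minus strand). Gabrb2 lies on chromosome 10 (27973681 to 28187565, plus strand). Gabrd lies on chromosome 5 (172797450 to 172809353, minus strand) and Gabra3 on chromosome X (152414615 to 152642531, minus strand). Their genomic spans differed widely, from 11.9 kb for Gabrd and 77.2 kb for Gabra4 to 214 kb for Gabrb2, 228 kb for Gabra3 and 469 kb for Gabrb1. Gabra5 spans 113 kb and Gabra2 136 kb. The genes of the table that overlapped the 7 spans were 2 microRNA genes in Gabra3 and 1 in Gabra5. Levels are per length of the table's gene model, which is 1793 bases for Gabrd and 4419 bases for Gabra4, and reads outside the model are not in them.

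RefSeq promoter windows of the GRCr8 build, each running from 250 bases before to 50 bases after the gene start, were matched by symbol for 6 of the 7 genes. Gabra2 was not among the 33469 windows. The windows fell into 2 kinds by base composition. Those of Gabra4, Gabra5 and Gabrd, the extrasynaptic genes, held 70.7, 76.3 and 73.7% G and C and 35, 42 and 40 CpG pairs. Those of Gabra3, Gabrb1 and Gabrb2 held 39.3, 49.3 and 44.0% G and C and 0, 11 and 9 CpG pairs, against a median of 51.7% over all windows. The windows of the β genes and of Gabra5 and Gabrd are shown. That of Gabra3, which also differed between groups below, is not. In capitals are the core of the nuclear respiratory factor 1 motif (the stretch in capitals in both β windows, its own reverse complement) and the GC box (GGGCGG, or CCGCCC on the other strand), both searched on both strands. Coordinates and strand are chr14:36902844-36903143 (minus) for Gabrb1, chr10:27439543-27439842 (plus) for Gabrb2, chr1:117516557-117516856 (minus) for Gabra5 and chr5:171252660-171252959 (minus) for Gabrd.
Gabrb1: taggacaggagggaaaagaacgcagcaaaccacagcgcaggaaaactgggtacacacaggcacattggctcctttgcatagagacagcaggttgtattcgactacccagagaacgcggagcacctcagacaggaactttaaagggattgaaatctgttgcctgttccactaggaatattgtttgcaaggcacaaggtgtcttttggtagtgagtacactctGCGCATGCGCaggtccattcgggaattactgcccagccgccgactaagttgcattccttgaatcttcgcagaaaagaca
Gabrb2: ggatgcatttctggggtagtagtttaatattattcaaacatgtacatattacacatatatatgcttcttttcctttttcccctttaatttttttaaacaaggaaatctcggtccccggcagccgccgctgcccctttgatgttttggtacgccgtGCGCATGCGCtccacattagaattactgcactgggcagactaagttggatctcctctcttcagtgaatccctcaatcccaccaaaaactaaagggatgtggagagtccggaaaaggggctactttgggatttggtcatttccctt
Gabra5: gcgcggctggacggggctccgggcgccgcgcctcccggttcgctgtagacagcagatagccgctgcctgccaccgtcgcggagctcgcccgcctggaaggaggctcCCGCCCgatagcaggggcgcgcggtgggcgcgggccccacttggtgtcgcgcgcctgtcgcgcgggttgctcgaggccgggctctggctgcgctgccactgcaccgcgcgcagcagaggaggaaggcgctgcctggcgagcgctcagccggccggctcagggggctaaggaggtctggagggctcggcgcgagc
Gabrd: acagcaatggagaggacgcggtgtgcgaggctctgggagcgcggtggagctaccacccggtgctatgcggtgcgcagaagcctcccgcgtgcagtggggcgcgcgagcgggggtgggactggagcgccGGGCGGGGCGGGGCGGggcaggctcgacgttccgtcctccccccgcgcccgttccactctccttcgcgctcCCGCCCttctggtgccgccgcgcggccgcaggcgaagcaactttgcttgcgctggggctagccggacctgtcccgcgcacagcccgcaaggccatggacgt

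Both β windows held the nuclear respiratory factor 1 core once, starting 29 bases before the gene start in Gabrb1 and 95 bases before it in Gabrb2. The core was present in 285 of the 33469 windows (0.852%) and in none of the other 4 member windows. The longest run shared by the 2 β windows was TGCGCATGCGC, which is the core with 1 more base at its start. The GC box occurred 4 times in Gabrd, 3 of them in overlapping tandem, and once each in Gabra4 and Gabra5. It was found in 33.1% of all windows and in none of the Gabra3, Gabrb1 and Gabrb2 windows. The E-box CACGTG (6.42% of all windows) and the cAMP response element TGACGTCA (1.83%) were in none of the 6, and TATAAA or its reverse complement (14.2%) was in Gabra3 only. These matches describe letters in a window and show no binding.

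Gabra2 and Gabra4 were the most abundant of the 7 genes in 5 of the 6 groups, and Gabrb1 was the lowest in every group. In Saline-Saline, Gabra2 stood at 45.8 ± 6.74 FPKM, Gabra4 at 40.7 ± 7.09, Gabrd at 28.5 ± 5.40, Gabra5 at 22.1 ± 4.60, Gabra3 at 21.4 ± 2.75, Gabrb2 at 21.0 ± 3.41 and Gabrb1 at 4.97 ± 0.997 (mean ± SD, n = 4). In Saline-SA the order was different. Gabra4 led with 46.5 ± 7.84 FPKM, followed by Gabrd with 37.4 ± 3.60 and Gabra2 with 29.97 ± 3.53 (SD, n = 4), while Gabrb2 stood at 4.29 ± 0.939 and Gabrb1 at 2.37 ± 0.550. The summed FPKM of the 7 genes was 185 ± 16 in Saline-Saline and 161 ± 14.5 in Saline-SA (SD, n = 4). Gabrb2 made up 11.4 ± 0.977% of that sum in Saline-Saline and 2.66 ± 0.485% in Saline-SA, and Gabrd 15.4 ± 1.80% and 23.2 ± 0.696%.

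The 6 group means of each gene were placed in order and each of the 35 neighbouring pairs compared by a two-sided exact permutation test of 4 against 4 libraries, in which 0.0286 is the smallest p the 70 assignments can give. Of the 35, 3 reached it: Heroin-SA above Saline-SA for Gabra2, Saline-Saline above Heroin-SA for Gabrb1, and LPS-Heroin above Heroin-SA for Gabrb2. Adjusted over the 35 (Benjamini-Hochberg), the smallest value was 0.333. Neighbouring means of Gabra3, Gabra4, Gabra5 and Gabrd did not differ beyond their spread. For Gabra4 the order ran from Heroin-SA (52.5 ± 5.54 FPKM) through Saline-Heroin, Saline-SA, LPS-Heroin and LPS-Saline to Saline-Saline (40.7 ± 7.09 FPKM), with no pair of groups separated. For Gabrd it ran from Heroin-SA (39.1 ± 2.39 FPKM) through Saline-SA, LPS-Heroin, Saline-Heroin and LPS-Saline to Saline-Saline (28.5 ± 5.40 FPKM). Gabrb2 and Gabrb1 were lower in both self-administration groups than in all 4 injection groups, with no overlap between any such pair of groups. The share of all genes without such overlap was not counted.

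**Figure D1:**
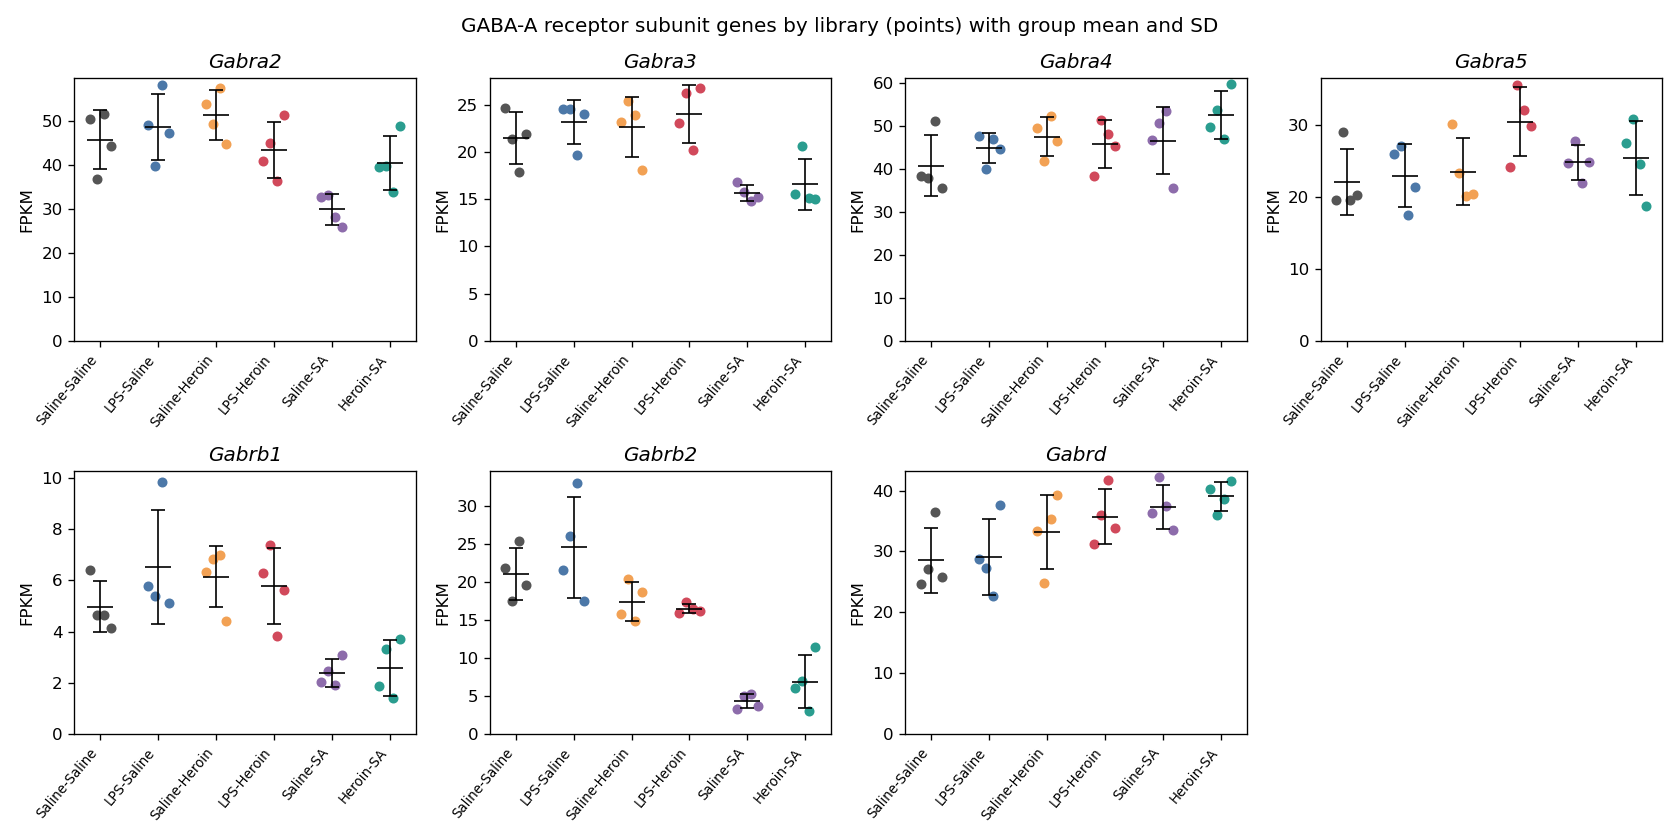
FPKM (vertical axis, from 0) of the 7 genes in the 24 libraries, by group; points are libraries in the order of replicates 1 to 4, and black marks the group mean and SD. The Gabrb2 points of Saline-SA and Heroin-SA (2.98 to 11.4 FPKM) lie below all 16 injection points (14.8 to 33.0 FPKM), while the Gabra4 points of all groups share the range from 35.5 to 59.7 FPKM.

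LPS or heroin injections alone were compared with Saline-Saline to ask whether either changed these subunits. Groups were compared with limma-trend on log2(FPKM + 0.1), and a gene was called at an unadjusted p of at most 0.05 and a fold change of at least 1.3 (0.378 on the log2 scale), with adjusted p (Benjamini-Hochberg) taken over all genes tested. After LPS alone none of the 7 genes was called, where 2.37% of the 15119 genes tested were. The differences ran from 0.02 to 0.36 on the log2 scale. After heroin alone again none was called, against 3.07% of all genes, and the differences ran from -0.27 (Gabrb2) to 0.30 (Gabrb1). Both comparisons, and the LPS-Heroin and Saline-SA ones against Saline-Saline below, share the same 4 Saline-Saline libraries. No gene of the table reached an adjusted p under 0.05 in either, with 1002 and 995 genes at an unadjusted p under 0.05.

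Gabra5, the extrasynaptic α subunit enriched in hippocampus and cortex, had its highest group mean after LPS followed by heroin. Its libraries stood at 19.5, 28.9, 19.5 and 20.3 FPKM in Saline-Saline. They stood at 25.9, 27.1, 17.5 and 21.3 after LPS alone, 30.1, 23.3, 20.2 and 20.3 after heroin alone and 24.2, 35.5, 32.1 and 29.8 in LPS-Heroin. The LPS-Heroin libraries were high except replicate 1, and each other injection group had 1 or 2 libraries above that replicate. Against Saline-Saline the log2 fold change was 0.47 ± 0.15 (SE; 1.38-fold; 95% interval 0.12 to 0.82; p = 0.0143 and adjusted p = 0.307 by limma; exact permutation p = 0.0571), and Gabra5 was the only member called in this comparison, where 5.43% of all genes were. Against LPS-Saline it was 0.41 ± 0.16 (1.33-fold; p = 0.0288 and adjusted p = 0.977 by limma; exact permutation p = 0.0857). Against Saline-Heroin it was 0.38 ± 0.15 (p = 0.0358 and adjusted p = 0.9998 by limma; exact permutation p = 0.0857), just short of the fold limit. No member was called in this last comparison, where 2.2% of all genes were. Gabrd differed from Saline-Saline by 0.33 ± 0.13 (adjusted p = 0.401, limma), also under the fold limit.

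Cortical glutamatergic neuron markers, like Gabra5, had their highest group mean in LPS-Heroin. Of the 10 listed, 9 were detected, and their summed level was 119 to 330 FPKM in Saline-Saline, 143 to 444 in LPS-Saline, 190 to 510 in Saline-Heroin and 422 to 513 in LPS-Heroin. Slc17a7, the cortical vesicular glutamate transporter, averaged 158 FPKM in Saline-Saline and 333 in LPS-Heroin. Within groups, Gabra5 followed these markers over the 24 libraries (Pearson r = 0.72, adjusted p = 0.0218, permutation test, described below). The list mean of log2(FPKM + 0.1) differed by 0.44 in Saline-Heroin from Saline-Saline and by 0.33 in Heroin-SA from Saline-SA. Gabra5 differed by 0.09 and 0.01 there. The part of the cortical markers in the Gabra5 difference was not tested. Without the 2 libraries in which choroid plexus markers exceeded 10 FPKM (Saline-Saline replicate 1 and LPS-Heroin replicate 4), the Gabra5 difference from Saline-Saline was 0.42 ± 0.19 (adjusted p = 0.629, limma), which missed the limit on p, and no member was called. Against LPS-Saline the call was also lost without LPS-Saline replicate 3 or 4 or LPS-Heroin replicate 2, 3 or 4, with values from 0.29 to 0.42.

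Gabrb2, the β2 subunit of the most common synaptic receptors, was called lower over both heroin injection groups. Its libraries stood at 21.8, 17.4, 25.4 and 19.5 FPKM in Saline-Saline. They stood at 21.5, 26.0, 33.0 and 17.5 after LPS alone, 15.7, 20.3, 14.8 and 18.6 after heroin alone and 15.9, 17.3, 16.4 and 16.2 in LPS-Heroin. The 4 LPS-Heroin libraries lay close together and below all libraries of Saline-Saline and LPS-Saline. The share of all genes without such overlap was not counted. Of all genes tested, 1704 of 15134 had an unadjusted p under 0.05 (limma) against Saline-Saline, and 693 of 15069 against LPS-Saline. Against LPS-Saline the log2 fold change was -0.53 ± 0.17 (1.45-fold lower; p = 0.0114 and adjusted p = 0.977 by limma; exact permutation p = 0.0286). Gabra5 and Gabrb2 were the 2 members called in that comparison, against 2.29% of all genes. Against Saline-Saline it was -0.34 ± 0.11 (1.27-fold lower; p = 0.0122 and adjusted p = 0.290 by limma; exact permutation p = 0.0286), within the fold limit although the groups did not overlap. Over both pretreatments the heroin main effect was -0.40 ± 0.12 (1.32-fold lower; adjusted p = 0.547, limma), and Gabrb2 was the only member called, against 2.46% of all genes. The LPS main effect gave no called member (1.77% of all genes), and neither did the interaction of LPS and heroin (2.31% of all genes), in which the 7 differences ran from -0.46 to 0.32.

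Marker lists also differed between these groups. In LPS-Heroin the mean log2(FPKM + 0.1) of the cortical list differed from Saline-Saline by 0.82 and from LPS-Saline by 0.47, and that of septum and ventral forebrain by -1.22 and -0.47. In Saline-Heroin the 2 lists differed from Saline-Saline by 0.44 and -0.69. After LPS alone the 2 lists shifted in the same directions, with means of 3.25 and 1.99 against 2.91 and 2.74 in Saline-Saline. Gabrb2 differed by 0.19 ± 0.19 (SE) there. Within groups, Gabrb2 ran against the cortical markers without passing the correction (Pearson r = -0.65, adjusted p = 0.107, permutation test). The part of these lists in the Gabrb2 differences was not tested. The Gabrb2 differences rested in part on single libraries. LPS-Saline replicate 3, which had the highest Gabrb2 and Gabrb1 of the injection libraries and the lowest cortical marker level of its group, set the size of the difference from LPS-Saline. Without it the difference was -0.3773, just under the fold limit, and no member was called. The heroin main effect fell under the fold limit without LPS-Saline replicate 3 (-0.33), Saline-Saline replicate 3 (-0.36) or Saline-Heroin replicate 3 (-0.37).

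**Figure D2:**
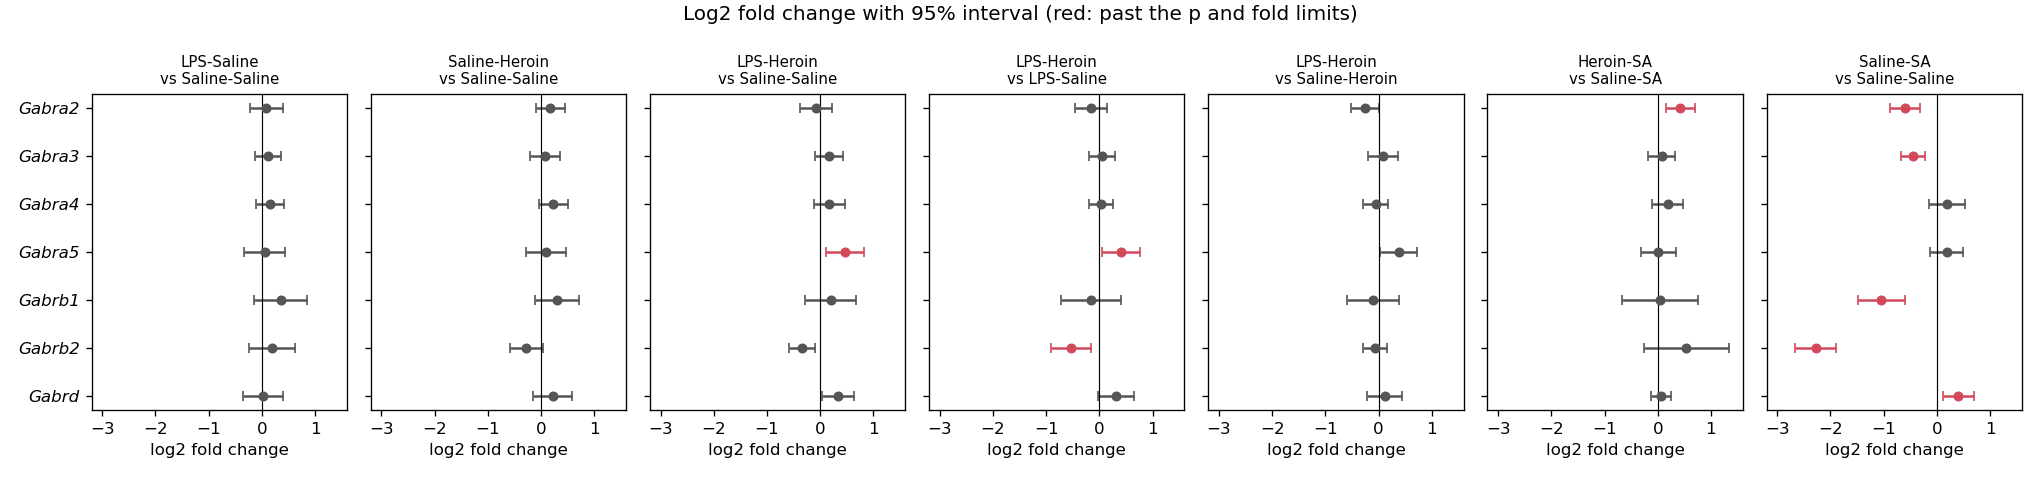
Log2 fold change (horizontal axis) of each of the 7 genes in 7 pairwise comparisons, with 95% intervals from limma; red marks values past both the p and the fold limits. After injections the called values are Gabra5 (0.47 and 0.41) and Gabrb2 (-0.53), and in Saline-SA against Saline-Saline they reach -2.28 for Gabrb2.

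In the self-administration experiment, Gabra2 was higher in rats that took heroin than in those that took saline. Gabra2 encodes the α2 subunit of synaptic receptors and is the subunit gene most often linked to alcohol and drug use in genetic studies. Its libraries stood at 32.6, 33.2, 28.3 and 25.8 FPKM in Saline-SA and 39.5, 39.8, 33.9 and 48.8 in Heroin-SA. Every Heroin-SA library was above every Saline-SA library, with the nearest pair under 1 FPKM apart. The share of all genes without overlap was not counted, but 1725 of the 15024 tested had an unadjusted p under 0.05 (limma). The log2 fold change was 0.43 ± 0.12 (SE; 1.35-fold; 95% interval 0.15 to 0.71; p = 0.00686 and adjusted p = 0.339 by limma; exact permutation p = 0.0286), and Gabra2 was the only member called, against 5.45% of all genes. Mitochondrial genes took 14.1 and 15.9% of reads in the Saline-SA libraries of lowest Gabra2 and 10.0 to 11.8% in the other SA libraries. Without those 2 libraries the difference was 0.29 ± 0.14 (adjusted p = 0.757, limma), which missed the limit on p, and no member was called. It was 0.33 without Heroin-SA replicate 4 and 0.36 without Saline-SA replicate 4, both under the fold limit. Over all genes tested here, the median log2 fold change rose with genomic span. It was -0.02 up to 20 kb, 0.02 for 20 to 100 kb, 0.08 for 100 to 200 kb and 0.11 over 200 kb. Gabra2 spans 136 kb, and the part of span was not tested.

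Gabrb2 varied more among Heroin-SA libraries, relative to its mean, than in any other group (coefficient of variation 50.9%), at 5.98, 7.01, 2.98 and 11.4 FPKM against 3.30, 4.95, 5.21 and 3.67 in Saline-SA. Replicates 1, 2 and 4 exceeded all Saline-SA libraries and replicate 3 was below them. The log2 difference of 0.54 ± 0.36 was not called (adjusted p = 0.566, limma). It was called without Heroin-SA replicate 3. The other 5 genes differed by 0.01 to 0.19 on the log2 scale and none was called. The Heroin-SA difference from Saline-SA less the Saline-Heroin difference from Saline-Saline was also tested, and is called the test by route below. The heroin groups differed as well in dose, days of heroin, surgery, housing and light cycle. Route alone was therefore not tested. No member was called, against 4.38% of all genes. Gabrb2 had the largest value, 0.81 ± 0.41 (95% interval -0.06 to 1.68; adjusted p = 0.765, limma), and the remaining 6 ran from -0.26 to 0.26.

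Of the pairwise comparisons fitted, that of the 2 saline control groups gave the largest difference, in Gabrb2. In Saline-SA, Gabrb2 was 4.86-fold lower than in Saline-Saline (log2 fold change -2.28 ± 0.17, adjusted p = 0.000147, limma). Gabrb1 was 2.06-fold lower (-1.04 ± 0.20, adjusted p = 0.00652), Gabra2 1.52-fold lower (-0.60 ± 0.12, adjusted p = 0.00947) and Gabra3 1.36-fold lower (-0.44 ± 0.10, adjusted p = 0.0134). Gabrd was 1.32-fold higher (0.40 ± 0.13, adjusted p = 0.0497). The 4 lower genes did not overlap between the groups (exact permutation p = 0.0286 each), whereas Gabrd did (exact permutation p = 0.0857). The share of all genes without overlap was not counted, but 5601 of the 15150 had an unadjusted p under 0.05 (limma). Gabra4 (0.19 ± 0.15) and Gabra5 (0.18 ± 0.14) were not called. In all, 5 of the 7 members were called, 4 lower and 1 higher, where 22.8% of all 15150 genes were called (1283 higher, 2165 lower) and 23.7% had an adjusted p under 0.05.

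The values behind this were clearly apart for the β genes. Gabrb1, whose product is a β subunit found in neurons and astrocytes, stood at 6.42, 4.66, 4.65 and 4.14 FPKM in Saline-Saline and 2.01, 2.47, 1.89 and 3.10 in Saline-SA. Gabra3, the α3 subunit of synaptic receptors, stood at 24.6, 21.4, 17.9 and 21.8 and 16.8, 15.8, 14.8 and 15.2. Every Saline-SA value of both genes was below every Saline-Saline value. Gabrd, the δ subunit that marks extrasynaptic receptors, stood at 24.6, 27.2, 36.5 and 25.8 and 36.2, 42.2, 37.4 and 33.6. Saline-Saline replicate 3 was in the Saline-SA range and the other 3 were below it. Without Saline-Saline replicate 1 the calls of Gabra3 (-0.37) and Gabrd (0.34) fell under the fold limit and 3 members remained called: Gabra2, Gabrb1 and Gabrb2. Gabrd also fell under it without Saline-Saline replicate 4 (0.36) or Saline-SA replicate 2 (0.34). Without the 2 Saline-SA libraries of highest mitochondrial share all 5 were still called, with Gabrb2 at -2.34 and Gabra2 at -0.46.

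This comparison cannot be read as an effect of saline intake. The SA rats had surgery, single housing, a reversed light cycle and a different interval between the last exposure and death, and the mitochondrial share of reads, the MSN markers and the astrocyte markers also differed between the experiments, so that these cannot be told apart. On the mean log2(FPKM + 0.1) of each list, Saline-SA less Saline-Saline was 0.50 for the 12 MSN markers, -0.55 for the 6 astrocyte markers and -0.22 for the 9 cortical ones. It was -0.60 for septum and ventral forebrain, -0.51 for thalamus, -0.40 for oligodendrocytes, -1.44 for choroid plexus and 0.43 for endothelium. The microglia and interneuron lists each gave -0.22. Within the astrocyte list the change was uneven, from 98.5 to 28.1 FPKM for Slc1a2 but 108 to 102 for Gja1. The choroid plexus value rested on 2 detected markers and on Saline-Saline replicates 1 and 4 (4.63 and 1.00). Saline-Saline replicates 2 and 3 (-1.67 and -1.70) lay below the Saline-SA mean of -0.88. The part of these lists in the subunit differences was not tested. Genomic span moved with the difference as well. Over all genes tested the median log2 fold change was 0.01, but it was 0.06 for the 7961 genes spanning up to 20 kb, -0.03 for the 5397 of 20 to 100 kb, -0.09 for the 1156 of 100 to 200 kb and -0.25 for the 636 of over 200 kb, of which 35.1% were called lower. Of the 4 lower members, Gabra3, Gabrb1 and Gabrb2 span over 200 kb and Gabra2 136 kb, and Gabrd is the shortest. The part of span was not tested. Genes with the nuclear respiratory factor 1 core in their promoter window had a median of 0.05 (192 genes), near that of all genes. Genes with windows under 50% G and C had a median of -0.004, with 17.2% called lower. For windows of 50 to 70% these were 0.03 and 11.9%, and for 70% or more -0.04 and 18.9%.

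The balance of synaptic and extrasynaptic subunits was described by the mean log2(FPKM + 0.1) of Gabra2 and Gabra3 less that of Gabra4, Gabra5 and Gabrd in each library. It was 0.10 ± 0.27 in Saline-Saline, 0.12 ± 0.16 after LPS alone, 0.04 ± 0.23 after heroin alone, -0.19 ± 0.28 in LPS-Heroin, -0.69 ± 0.10 in Saline-SA and -0.53 ± 0.12 in Heroin-SA (SD, n = 4). In Saline-SA all libraries lay between -0.778 and -0.567, only just below the lowest value of any injection library, -0.565 in LPS-Heroin. The LPS-Heroin libraries ran from there to 0.05 and overlapped each of the other injection groups. They also overlapped Heroin-SA, which ran from -0.64 to -0.41. Gabra2 less Gabra4 alone gave 0.17 ± 0.22 in Saline-Saline, -0.08 ± 0.27 in LPS-Heroin, -0.62 ± 0.20 in Saline-SA and -0.38 ± 0.08 in Heroin-SA. On the FPKM scale the synaptic pair summed to 67.2 ± 7.02 in Saline-Saline and 45.6 ± 4.20 in Saline-SA, and the extrasynaptic genes to 91.3 ± 11.99 and 109 ± 11.2. No test was made of this score, since the genes in it were known before from these data.

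**Figure D3:**
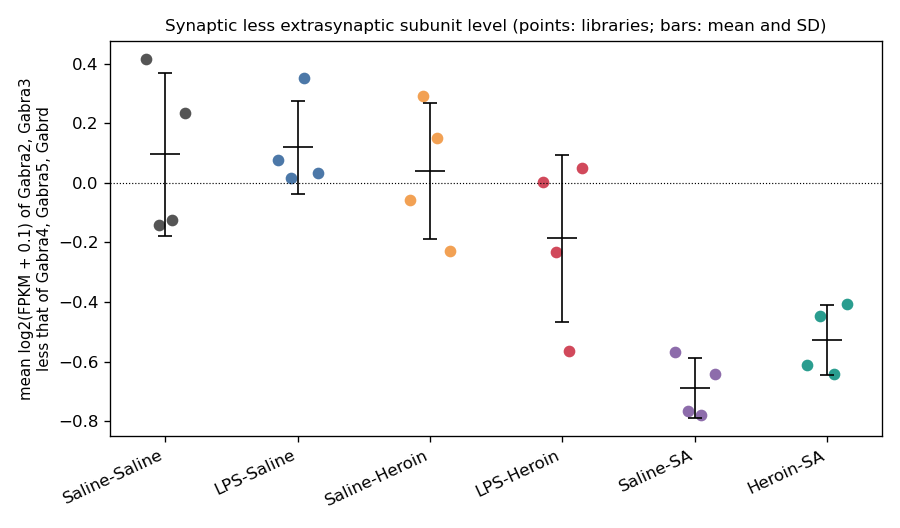
Mean log2(FPKM + 0.1) of Gabra2 and Gabra3 less that of Gabra4, Gabra5 and Gabrd (vertical axis) in each library, by group; black marks the mean and SD of 4 libraries. The Saline-SA points (mean -0.69) lie below all injection points, the lowest of which is only just above them. Heroin-SA (-0.53) runs from -0.64 to -0.41 and overlaps LPS-Heroin (-0.19), which spreads from -0.56 to 0.05.

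A further 4 GABA-A subunit genes that passed the filter of a mean of 0.5 FPKM in the comparison of the saline groups were read beside the 7, and all 4 were called lower in Saline-SA. Gabrg3, a γ subunit, stood at 6.96 ± 1.25 FPKM in Saline-Saline against 3.19 ± 0.146 in Saline-SA (log2 fold change -1.09, adjusted p = 0.00124, limma). Gabrg1, a γ subunit also found in glia, stood at 28.5 ± 6.54 against 12.6 ± 2.17 FPKM (-1.16, adjusted p = 0.00259, limma). Gabre (-1.15, adjusted p = 0.0889, limma) and Gabrq (-2.86, adjusted p = 0.00740, limma) were called lower as well. Gabrq had 0 to 6 reads per Saline-SA library, so its fitted value depends on the pseudocount. Of these 11 subunit genes, 8 were called lower, Gabrd higher, and Gabra4 and Gabra5 neither. Over all genes tested in this comparison, 14.3% were called lower and 8.47% higher. Among those spanning over 200 kb, 35.1% were called lower. In Heroin-SA against Saline-SA, Gabrg1 (0.20 ± 0.19) and Gabrg3 (0.32 ± 0.29) passed the filter and neither was called, against 5.45% of all genes. After LPS and heroin, 2 of the 4 were called lower than in Saline-Saline, Gabre (1.39 ± 0.414 against 0.295 ± 0.173 FPKM, -1.97) and Gabrq (1.48 ± 0.885 against 0.442 ± 0.128, -1.40), both rare subunits of hypothalamus and brainstem with at most 138 reads in the libraries compared and adjusted p of 0.169 and 0.278 (limma). Over all genes 2.44% were called lower there. Markers of septum and ventral forebrain differed by -1.22 in their list mean in the same comparison, and their part was not tested. Gabre was also called lower in the LPS main effect (-1.27), where 1.77% of all genes were called.

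**Figure D4:**
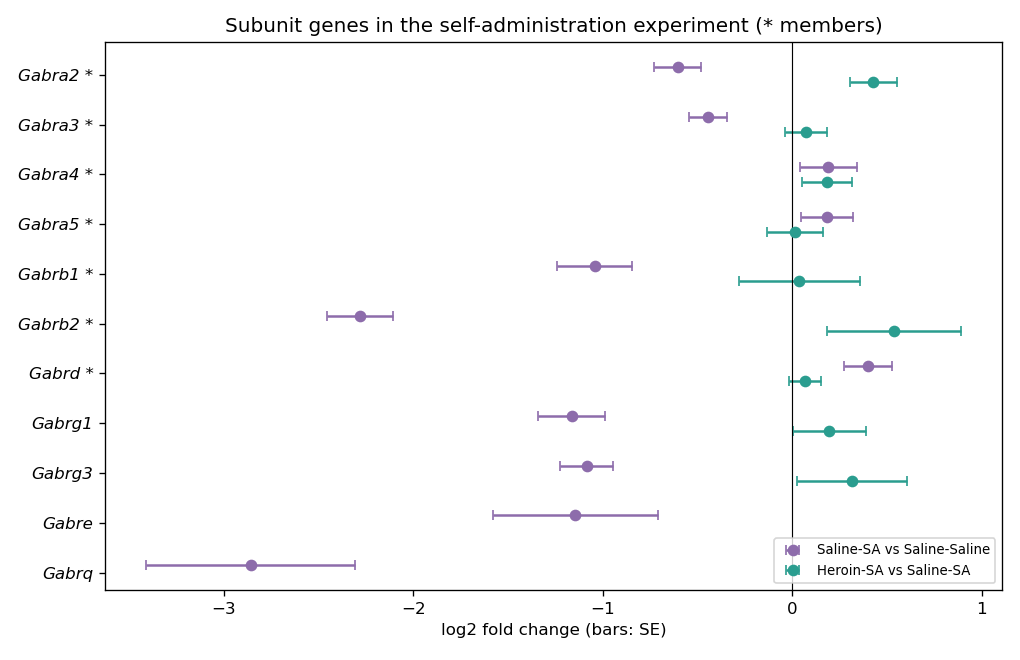
Log2 fold change with SE (horizontal axis) of 11 subunit genes, the 7 members marked by asterisks, in Saline-SA against Saline-Saline (purple) and Heroin-SA against Saline-SA (green). All but Gabra4, Gabra5 and Gabrd lie left of 0 in the first; Gabre and Gabrq have no green value because they were under the filter of 0.5 FPKM there.

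Genes that make, move and sense GABA were called mainly between the experiments, and so were genes in general. Between the saline groups 22.8% of all genes were called. The share was 5.43% in LPS-Heroin and 2.37% in LPS-Saline, each against Saline-Saline. It was 2.46% in the heroin main effect and 1.77% in the LPS main effect. Of 8 genes for GABA synthesis, uptake and breakdown, 3 were called lower in Saline-SA than in Saline-Saline: Slc32a1, the vesicular GABA transporter (149 against 103 FPKM, -0.53), Abat, the GABA transaminase (-0.45), and Slc6a11, the astrocytic GABA transporter (-0.76). In LPS-Heroin, Slc6a11 (40.9 ± 6.46 in Saline-Saline against 22.1 ± 3.40 FPKM, -0.88) and Slc32a1 (-0.54) were called lower, and Slc6a11 was also called in the heroin main effect (-0.58). Of the 2 GABA-B receptor genes read, Gabbr2 was called higher in LPS-Heroin (0.45) and lower in Saline-SA (-0.47). Of 19 inhibitory synapse scaffold and trafficking genes, 6 were called between the saline groups, 5 lower and 1 higher. The 4 of smallest p were Shisa7, an auxiliary subunit of GABA-A receptors (40.9 ± 5.49 against 79.8 ± 4.78 FPKM, 0.97), Lhfpl4, which links receptors to neuroligin (-0.77), Slitrk3, a synaptic adhesion protein (-0.67), and Plcl1, a receptor binding protein (-0.73). Hap1, which returns receptors to the surface, was called lower there (-0.61), in LPS-Saline (-0.48), in LPS-Heroin (-0.63) and in the LPS main effect (-0.42). Of 4 chloride transport genes tested, Slc12a5, the chloride exporter that makes GABA inhibitory in mature neurons, was called lower in Saline-SA (88.3 ± 8.82 against 51.2 ± 2.16 FPKM, -0.78).

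Within groups, several members followed the cell type markers of their library. Each gene's log2(FPKM + 0.1) was taken less its group mean and related to the mean of each of 10 marker lists and to the mitochondrial share, 77 relations over 24 libraries, with permutations of libraries within groups. Gabra4 followed the MSN markers most closely (Pearson r = 0.86, permutation p = 2.00e-05, adjusted p = 0.00154; Spearman rho = 0.79, adjusted p = 0.00539). The relation held within the 16 injection libraries (r = 0.82), within the 8 self-administration libraries (r = 0.96) and without the 2 libraries of most extreme marker level (r = 0.80). Gabrb1 followed the astrocyte markers (r = 0.77, permutation p = 0.000170, adjusted p = 0.00654; rho = 0.78, adjusted p = 0.00962), at r = 0.77 and 0.83 within the experiments and 0.70 without the 2 extreme libraries. Gabra5 followed the cortical glutamatergic markers (r = 0.72, permutation p = 0.000850, adjusted p = 0.0218; rho = 0.70, adjusted p = 0.0282), at r = 0.65 and 0.89 within the experiments and 0.59 without the 2 extreme libraries. Gabra2 also followed the astrocyte markers (r = 0.65, permutation p = 0.00534, adjusted p = 0.0822; rho = 0.67, adjusted p = 0.0487), under an adjusted p of 0.05 by rank only. This relation was present in the 16 injection libraries (r = 0.87) and weak in the 8 self-administration libraries (r = 0.10), with r = 0.58 without the 2 extreme libraries. A further relation under an adjusted p of 0.05 was a negative one of Gabra3 with the mitochondrial share (r = -0.43, permutation p = 0.00251, adjusted p = 0.0483; rho = -0.60, adjusted p = 0.0431), with r = -0.73 and -0.36 within the experiments and -0.47 without the 2 extreme libraries. Gabrb2 ran against the cortical markers (r = -0.65, permutation p = 0.0125; rho = -0.53, p = 0.0298) but did not pass the correction (adjusted p = 0.107 and 0.281), with r = -0.69 and -0.66 within the experiments and -0.44 without the 2 extreme libraries.

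**Figure D5:**
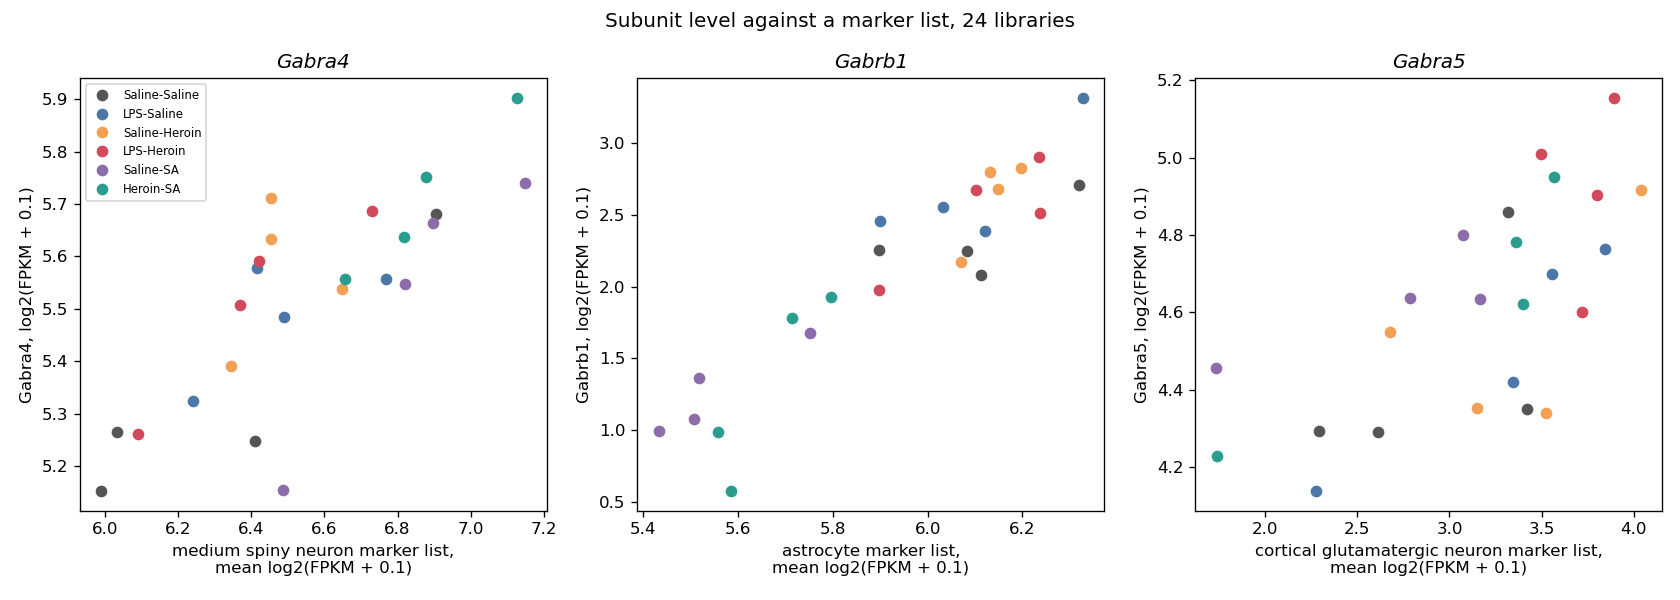
Level of Gabra4, Gabrb1 and Gabra5 (vertical axes, log2(FPKM + 0.1)) against the mean level of the MSN, astrocyte and cortical glutamatergic marker lists (horizontal axes, log2(FPKM + 0.1)); each point is 1 of 24 libraries, coloured by group. Within groups the correlations of deviations were 0.86, 0.77 and 0.72.

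The members moved only loosely with each other. Of 21 pairs, none had an adjusted p under 0.05 over the same 24 libraries (permutation test). The highest were Gabrb1 with Gabrb2 (r = 0.58, adjusted p = 0.120; rho = 0.37, adjusted p = 0.313), Gabra2 with Gabrb1 (r = 0.57, adjusted p = 0.0951; rho = 0.54, adjusted p = 0.128) and Gabra2 with Gabra4 (r = 0.56, adjusted p = 0.0951; rho = 0.57, adjusted p = 0.106). Their permutation p-values were 0.0342, 0.0136 and 0.0110, and without the 2 extreme libraries r was 0.37, 0.42 and 0.52. Gabra4 and Gabrd, whose products assemble together, gave r = 0.54 (permutation p = 0.0110, adjusted p = 0.0951; rho = 0.60, adjusted p = 0.106), with r = 0.42 without the 2 extreme libraries. Among 12096 genes of at least 1 FPKM, the 3 whose deviations were most like each member's, by Pearson r over 24 libraries, were named as a description. For Gabra4 they included Kcnab1 and Epha4 (r = 0.93 and 0.91), and for Gabrb2 Sorcs1, Camta1 and Tab3 (0.93, 0.93 and 0.91). For Gabrb1 they were Igdcc4, Arrb1 and Ubr1 (0.89 each), and for Gabra5 Efhd2, Tshz3 and Bhmt (0.87, 0.85 and 0.85). Gabrd was most like Rbfox1, Mapkap1 and Chn1 (0.86, 0.84 and 0.84), Gabra2 most like Csnk2a1, Ctdsp2 and Nedd4 (0.85, 0.84 and 0.81), and Gabra3 most like Cntnap4, Kcng2 and Atp2b4 (0.77, 0.75 and 0.74). None of the 7 had another GABA-A subunit gene among its nearest 3.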

How the data were processed

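Poly-A RNA-seq of the NAc was analysed from 24 libraries, 4 in each of 6 groups assigned by the sample titles. The authors deposited 1 table of FPKM for 32545 genes, which their processing notes credit to fastp, HISAT2 and featureCounts on rn6. Versions, the annotation release and strand setting are not given in the sources used here. Every value came out as whole reads (tolerance 0.01), giving 12312878 to 18850240 reads per library, and precision covers counting error and the spread between libraries only. Every column with values was assigned to a library.

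Comparisons used limma 3.58.1 (R 4.3.3) with a trended prior on log2(FPKM + 0.1), with the libraries of the groups compared and genes of mean FPKM of at least 0.5. A gene was called at unadjusted p of at most 0.05 and a fold change of at least 1.3, and Benjamini-Hochberg adjustment was over all genes tested. The pseudocount makes fold changes of low genes too small. Single values were compared by two-sided exact permutation tests (scipy 1.17.1), and relations across libraries by 100000 permutations within groups (numpy 2.4.6). The fit was tested on simulated data. Replicate numbers did not pair libraries. Alternatives were other pseudocounts, filters and scalings, a fit of all libraries, limma-voom on recovered reads, a replicate block and leaving out each library. All 7 genes are described, with fold changes given where called or not overlapping, ranges otherwise, and up to 4 called genes of each further list by p. Some genes of the lists are not reported here. The members, gene lists and tests were chosen with earlier results of these data known. Promoters are RefSeq GRCr8 windows, and no coordinates were converted between builds.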

Additional observations from a re-analysis of the deposited data

Results flagged for a closer look

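In 4 of the 42 combinations of gene and group, 1 library stood apart from the other 3 by Dixon's test at the 95% level, which chance gives in about 1 group of 20. Gabra3 was lowest in LPS-Saline replicate 3, at 19.7 FPKM against 23.99 to 24.5 in the other 3, and highest in Heroin-SA replicate 2, at 20.6 FPKM against 15.002 to 15.6. Gabra5 was highest in Saline-Saline replicate 2, at 28.9 FPKM against 19.5 to 20.3, and its cortical marker level was the second of its group, below that of replicate 4. Gabrb1 was highest in LPS-Saline replicate 3, at 9.84 FPKM against 5.13 to 5.78. LPS-Saline replicate 3 thus stood apart for 2 of the 7 genes and was also the highest of its group for Gabrb2, at 33.0 FPKM.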

How the results depend on the processing

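The Gabrb2, Gabrb1 and Gabra2 differences between the saline groups were called under every alternative run, and no fold change of a called gene changed direction. The synaptic less extrasynaptic level moved by less than 1 SD under every alternative run, but its mean lay near 0 in 2 groups and changed sign when 1 library was left out. It was -0.01 in Saline-Saline without replicate 1 and -0.04 in Saline-Heroin without replicate 2. Counts of called members moved as follows. With no limit on fold change they were 3 in LPS-Heroin against Saline-Saline, 1 in LPS-Heroin against Saline-Heroin and 2 in the heroin main effect. A pseudocount of 0.01 or equal medians also gave 1 (Gabra5) in LPS-Heroin against Saline-Heroin. With all 24 libraries in 1 fit, LPS-Heroin against LPS-Saline gave 1 (Gabrb2 missed the limit on p) and the test by route 1 (Gabrb2), as did limma-voom for the route. With equal medians Gabra3 in Saline-SA against Saline-Saline was -0.3776, just under the fold limit.

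Leaving out 1 library gave counts of 0 to 1 in Saline-Heroin against Saline-Saline (Gabrb1 without Saline-Saline replicate 1 or Saline-Heroin replicate 4), in LPS-Heroin against Saline-Heroin (Gabra5 without Saline-Heroin or LPS-Heroin replicate 1), in the interaction (Gabra2 without LPS-Saline replicate 2 or LPS-Heroin replicate 4), in the heroin main effect and by route (Gabrb2 without Heroin-SA replicate 3), 0 to 2 in LPS-Heroin against LPS-Saline and in Heroin-SA against Saline-SA, 1 to 2 in LPS-Heroin against Saline-Saline (also Gabrb2 without Saline-Saline replicate 2, and Gabrd without Saline-Saline replicate 3 or LPS-Heroin replicate 1), 3 to 5 between the saline groups, and 0 throughout for LPS-Saline against Saline-Saline and the LPS main effect. Alternatives added after seeing the data left out libraries that stood apart. Without the 2 Saline-SA libraries of highest mitochondrial share, 5 members were called between the saline groups and 0 in Heroin-SA against Saline-SA. Without the libraries with choroid plexus markers over 10 FPKM, 0 were called in LPS-Heroin against Saline-Saline, 1 in LPS-Heroin against LPS-Saline and 3 between the saline groups. The cause of these changes was not tested.

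Same-numbered libraries of the compared groups did not deviate together (r from -0.15 to 0.15 over 28 pairs, 3 of them over 0.1), so the numbers pair nothing. With the replicate block the counts of called members were those of the fit without it in all 11 comparisons, for example 5 between the saline groups and 1 in Heroin-SA against Saline-SA. The low reads of Gabrb1 (36 to 267), and of Gabrb2 in the self-administration libraries (84 to 359), limit what could be seen for them. With 4 libraries a group, differences near the fold limit are at the edge of detection.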
